A study of Arabidopsis thaliana with 16 samples.

Results

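Roots of Arabidopsis thaliana seedlings grown with a warm shoot and a root zone that cooled with depth were compared with roots of seedlings kept at 22 °C throughout. The comparison takes 5 of the 16 samples of the series, namely 3 gradient root samples and 2 root samples at 22 °C, chosen by their labels. At all 32833 loci the 22 °C samples were identical, so they were counted as 1 library, and 4 of the 14 distinct libraries of the series remained. A gene was tested where 2 or more root columns reached a value of 10, which 21877 of 32833 loci did. Both identical 22 °C columns counted in this filter. A gene that reached 10 in the 22 °C library alone thus passed, and could differ only by being lower in the gradient.

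The seedlings were wild type and 10 days old in all groups, and all spent their first 4 days at 22 °C on MS1/2 medium. Gradient seedlings then spent 6 days with the shoot at 32 °C and the root at temperatures that fell with depth, and 22 °C seedlings spent those 6 days at 22 °C. Another root group had whole seedlings at 32 °C for the same time. Its 3 libraries entered the fit to estimate the spread between libraries, and its values are set beside those of the comparison where they help to place them. Not given in the sources used here are the temperatures reached along the root zone and the time of day of harvest. The 22 °C group has 1 library and no spread of its own, and was taken to be as variable as the gradient and 32 °C roots. No label states that replicates are independent cultures, so a p-value measures only how much these libraries scatter, which may be technical.

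Roots sense local temperature and also receive sugars, hormones and peptides from the shoot, so a warm shoot over a cooler root changes more than the local heat. Heat unfolds proteins, and cells answer with small heat shock proteins that hold unfolded proteins in solution, HSP70 and HSP90 chaperones that refold them, and HSFA transcription factors that switch these genes on. Root transport is tuned separately by phosphate, sulfur, iron and nitrogen signalling, and roots of the mustard family carry glucosinolates and, in Arabidopsis, triterpene gene clusters.

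Values are the authors' normalised counts, and log2 fold changes are gradient over 22 °C on the log2(value + 1) scale, given ± SE. That scale understates the change of genes with low values. A gene was called at a limma p-value below 0.05 after Benjamini-Hochberg adjustment over the 21877 genes. Root libraries held 34021280 to 34769425 normalised counts in total, and the number of reads behind them is unknown. Gradient replicates 1 and 2 were nearest to each other, with a root mean square log2 difference of 0.388. Replicate 3 lay at 0.619 from replicate 1 and 0.454 from replicate 2, and was the gradient library nearest to the 22 °C library, at 0.832 against 0.881 for replicate 2 and 0.954 for replicate 1.

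Markers of green tissue were checked because a root sample can carry shoot material. Their summed value over 21 genes was 3532, 8130 and 15064 normalised counts in gradient replicates 1, 2 and 3, against 11971 in the 22 °C library, and 1914969 to 3876107 in the shoot libraries. The gradient libraries thus lay on either side of the 22 °C library, and 0 of 20 tested markers were called, with 1 lower after TMM scaling. The marker that did not pass the filter was at 0 in gradient replicate 1. Leaving out gradient replicate 3 gave 1 of the 20 higher and 4 lower, and leaving out gradient replicate 1 or 32 °C replicate 3 gave 1 called. LHCB1.1 (AT1G29920), a light-harvesting protein gene, had 7, 18 and 290 normalised counts in the gradient libraries and 44 at 22 °C. The part of green tissue in the results below was not tested. Root identity markers were present, with 27 Casparian strip and suberin genes and 23 root hair genes passing the filter.

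In all, 3558 genes were called (16.3% of those tested), 2431 higher in the gradient (11.1%) and 1127 lower (5.15%). The median log2 fold change of all tested genes was 0.09. TMM scaling, which sets libraries to a common trimmed mean, moved that median to -0.01 and gave 1768 genes higher and 1645 lower. The share of calls that were higher was thus 68.3% as deposited and 51.8% after TMM scaling. In bulk roots fewer cells of a type and less RNA per cell cannot be told apart. Among genes called higher, 1458 differed at least 2-fold and 46 at least 16-fold, and among genes called lower 577 differed at least 2-fold and 22 at least 16-fold. The plot of all tested genes shows these calls against expression level.

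**Figure D1:**
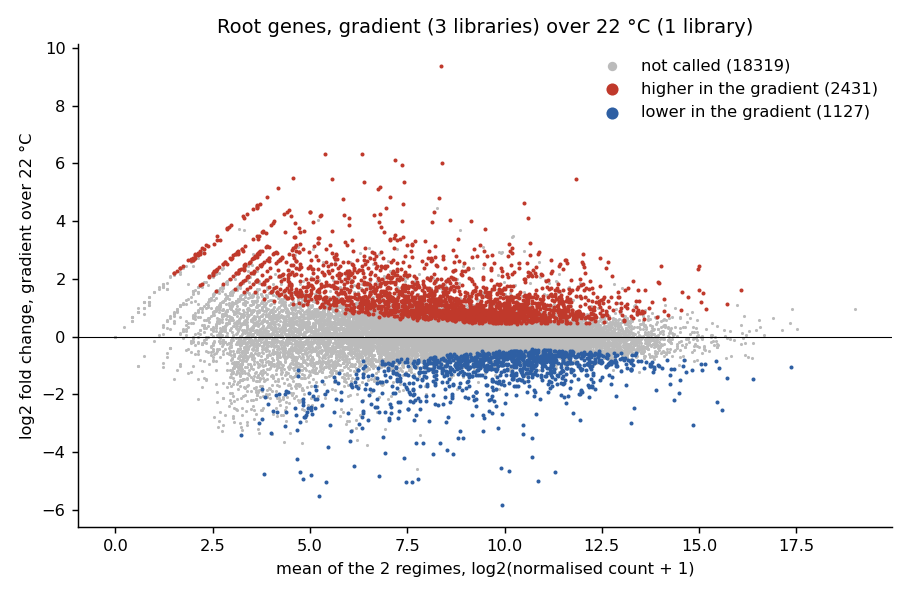
Each point is 1 of 21877 tested root genes. The x axis is the log2 of the mean of the gradient mean and the 22 °C value plus 1, the y axis the log2 fold change of the gradient over 22 °C, and colour marks the 2431 genes called higher (red), 1127 called lower (blue) and 18319 not called (grey). Calls lie on either side of 0 at nearly all levels, and LCR85, listed at 0 at 22 °C, is the highest point.

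The strength of the calls rested on single libraries. Leaving out each of the 6 gradient and 32 °C root libraries in turn left 963 higher and 360 lower genes called every time. Without gradient replicate 2, which lies between replicates 1 and 3, 1348 of the 3558 calls remained. Without 32 °C replicate 1, 1950 remained. Without gradient replicate 3, 3538 remained and 4029 genes were called higher and 2553 lower in all. In the text below, a gene that carries no such remark was called in all 6 of these fits.

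Single genes changed sharply. LCR85 (AT4G22210), a small cysteine-rich protein gene, had 643, 688 and 654 normalised counts in the gradient libraries and was listed at 0 at 22 °C (adjusted p = 8.17e-05). AT3G02620, annotated as a stearoyl-acyl-carrier-protein desaturase, had 7514, 7527 and 6338 in the gradient libraries, against 159 at 22 °C. Its libraries were close together and far above 22 °C, with a log2 fold change of 5.47 ± 0.15 (adjusted p = 7.51e-06). CYP710A4 (AT2G28860), a cytochrome P450 gene whose family makes the sterol stigmasterol, had 3941, 2729 and 1721 in the gradient libraries, against 105 at 22 °C (4.64 ± 0.39, adjusted p = 0.000718). GLR2.2 (AT2G24720), a glutamate receptor-like channel gene, had 240, 325 and 210 in the gradient libraries, against 8 at 22 °C (4.82 ± 0.42, adjusted p = 0.00079). The kinase genes AT5G37450 and AT1G66930 stood at 150 to 166 and 192 to 388 in the gradient libraries, against 1 and 3 at 22 °C. No gradient library of these 6 genes came near the 22 °C value. In the 32 °C roots AT3G02620 had 6066 to 6328 and CYP710A4 1521 to 2079, in the range of the gradient roots.

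Falls were also steep. BGAL7 (AT5G20710), a beta-galactosidase gene, had 133, 111 and 92 normalised counts in the gradient libraries, against 3571 at 22 °C, a log2 fold change of -5.0 ± 0.26 (adjusted p = 0.00014). PGIP1 (AT5G06860), an inhibitor of fungal polygalacturonases, had 170, 129 and 294, against 4817 at 22 °C (-4.69 ± 0.40, adjusted p = 0.000718). TI1 (AT2G43510), a defence trypsin inhibitor, had 122, 185 and 235, against 3128 at 22 °C (-4.16 ± 0.34, adjusted p = 0.000702). These are wall and defence genes of the apoplast, and their gradient libraries lay far below 22 °C. GRP3S (AT2G05380), a glycine-rich protein gene, had 18, 26 and 74 in the gradient libraries, against 1912 at 22 °C (-5.82 ± 0.67, adjusted p = 0.00205). CCOAMT (AT1G67980), a caffeoyl-CoA methyltransferase gene, had 52, 96 and 92, against 1832 at 22 °C (-4.55 ± 0.40, adjusted p = 0.000873). AER (AT5G16970), an alkenal reductase that detoxifies lipid aldehydes, had 38, 47 and 51, against 763 at 22 °C (-4.05 ± 0.48, adjusted p = 0.00238). In the 32 °C roots BGAL7 had 41 to 48, TI1 49 to 62 and CCOAMT 16 to 23 normalised counts.

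Gene lists were read against these background shares. Of 707 members written, 20 had no matching RefSeq symbol and 1 was not in the file, and the lists hold the other 686. The plot of lists sets the share of members called beside the share of all genes.

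**Figure D2:**
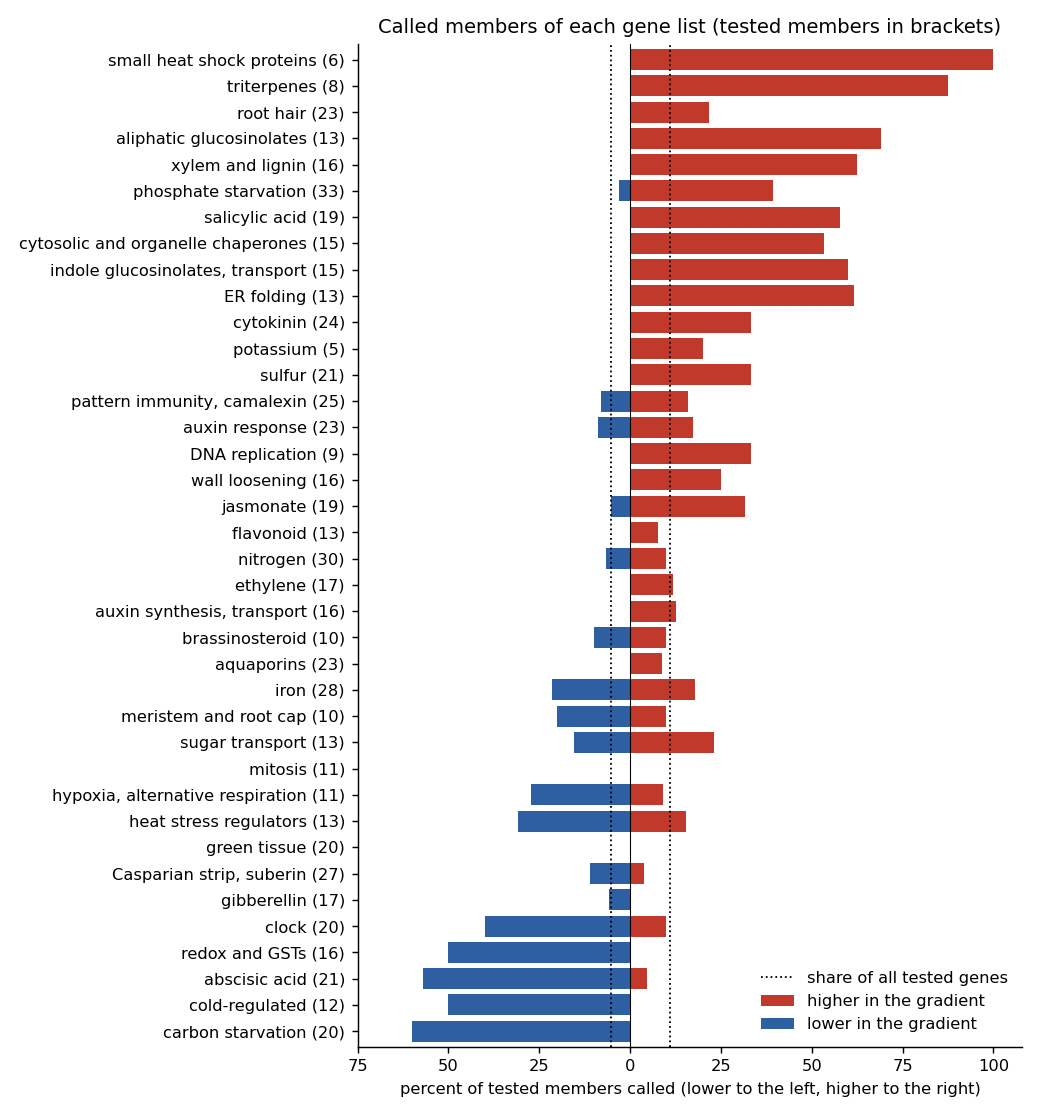
Bars give the percent of tested members of each of 38 gene lists called higher (red, to the right) or lower (blue, to the left) in gradient roots than in the 22 °C root library, sorted by median log2 fold change, with the number of tested members in brackets. Dotted lines mark the shares of all tested genes, 11.1% higher and 5.15% lower. Small heat shock proteins with a RefSeq symbol (6 of 6 higher) and triterpenes (7 of 8) are at the top, carbon starvation genes (12 of 20 lower) at the bottom, and mitosis and green tissue have no called member.

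Of the small heat shock protein list, 6 tested genes carried a RefSeq symbol, and these 6 were higher in gradient roots (median log2 fold change 4.65, with 2 of them listed at 0 at 22 °C). A further 7 loci of the list had no matching symbol, were annotated as HSP20-like chaperones and were left out of the list counts. Of these 5 were higher and 2 were not called, so that 11 of 13 were higher with them and the median was 2.22. The 2 uncalled loci were AT5G37670, with 14, 45 and 40 normalised counts in the gradient libraries against 39 at 22 °C, and AT1G52560, with 33, 54 and 55 against 65. HSP17.6A (AT5G12030), a cytosolic class II protein, had 133, 97 and 101 normalised counts in the gradient libraries, against 5 at 22 °C (4.20 ± 0.34, adjusted p = 0.000625). HSP18.2 (AT5G59720), a cytosolic class I protein, had 250, 282 and 304, against 63 at 22 °C (2.12 ± 0.22, adjusted p = 0.00141). The mitochondrial HSP23.6 (AT4G25200) had 90, 53 and 102 and was listed at 0 at 22 °C (adjusted p = 0.000188). The gradient libraries of HSP17.6A, HSP18.2 and HSP23.6 were similar to one another and, as at every gene called higher, all above 22 °C. In the 32 °C roots HSP17.6A averaged 645 ± 182, HSP18.2 420 ± 58.3 and HSP23.6 2253 ± 372 (SD, n = 3). Gradient roots were lower than the 32 °C roots at all 6 genes with a symbol by the same fit, in a comparison in which 42.6% of all genes were called (adjusted p from 0.000103 to 0.0177). The plastid HSP21 (AT4G27670) did not pass the filter, at 2 in each gradient library and 0 at 22 °C.

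Of 15 chaperone and co-chaperone genes 8 were higher and none lower (median log2 fold change 0.98), and those 8 were also called after TMM scaling. HSP90.1 (AT5G52640), the heat-inducible cytosolic HSP90, had 4240, 3834 and 3973 normalised counts in the gradient libraries, against 637 at 22 °C (2.65 ± 0.20, adjusted p = 0.000485). HOP3 (AT4G12400), which links HSP70 to HSP90, had 3000, 2513 and 2509, against 572 at 22 °C (2.22 ± 0.22, adjusted p = 0.00132). ROF1 (AT3G25230), an HSP90-binding immunophilin, had 6053, 6235 and 6949, against 2627 at 22 °C (1.28 ± 0.15, adjusted p = 0.00249). The mitochondrial MTHSC70-2 (AT5G09590) and the thermotolerance gene HSA32 (AT4G21320) were higher by 0.98 ± 0.14 and 1.7 ± 0.32. HSP70T-2 (AT2G32120) had 437, 436 and 358, against 169 at 22 °C, and its call ended without gradient replicate 2 (adjusted p = 0.0608). The disaggregase genes were not called. CLPB4 (AT2G25140, mitochondrial) had 1704, 1509 and 1229 against 1065 at 22 °C, and CLPB3 (AT5G15450, plastid) 985, 922 and 768 against 652. The constitutive HSC70-1 (AT5G02500) had 64628, 77293 and 71755 against 73018 at 22 °C (-0.04 ± 0.29).

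Of 13 transcriptional regulators of the heat response 2 were higher and 4 lower (median log2 fold change -0.26), and 3 of these 6 calls remained without gradient replicate 2. HSFA3 (AT5G03720), an activator that acts downstream of DREB2A, had 114, 125 and 109 normalised counts in the gradient libraries, against 45 at 22 °C (1.34 ± 0.21, adjusted p = 0.00659). DREB2A (AT5G05410) itself had 376, 414 and 377, against 1359 at 22 °C (-1.8 ± 0.23, adjusted p = 0.00331). The repressor gene HSFB2B (AT4G11660) had 239, 269 and 248, against 547 at 22 °C (-1.12 ± 0.21, adjusted p = 0.0119). In each of these the 3 gradient libraries were tightly grouped. HSFA7A (AT3G51910) and HSFA1E (AT3G02990) were lower by log2 fold changes of -0.97 ± 0.20 and -0.94 ± 0.22. These calls ended without gradient replicate 2 (adjusted p = 0.0501 and 0.0928). HSFA1A (AT4G17750), a master activator, had 305, 252 and 228, against 227 at 22 °C, and HSFA1D (AT1G32330) 984, 936 and 759, against 589 (adjusted p = 0.0545). MBF1C (AT3G24500), a coactivator, had 362, 759 and 555, against 638 at 22 °C. The plot of heat genes shows the library values.

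**Figure D3:**
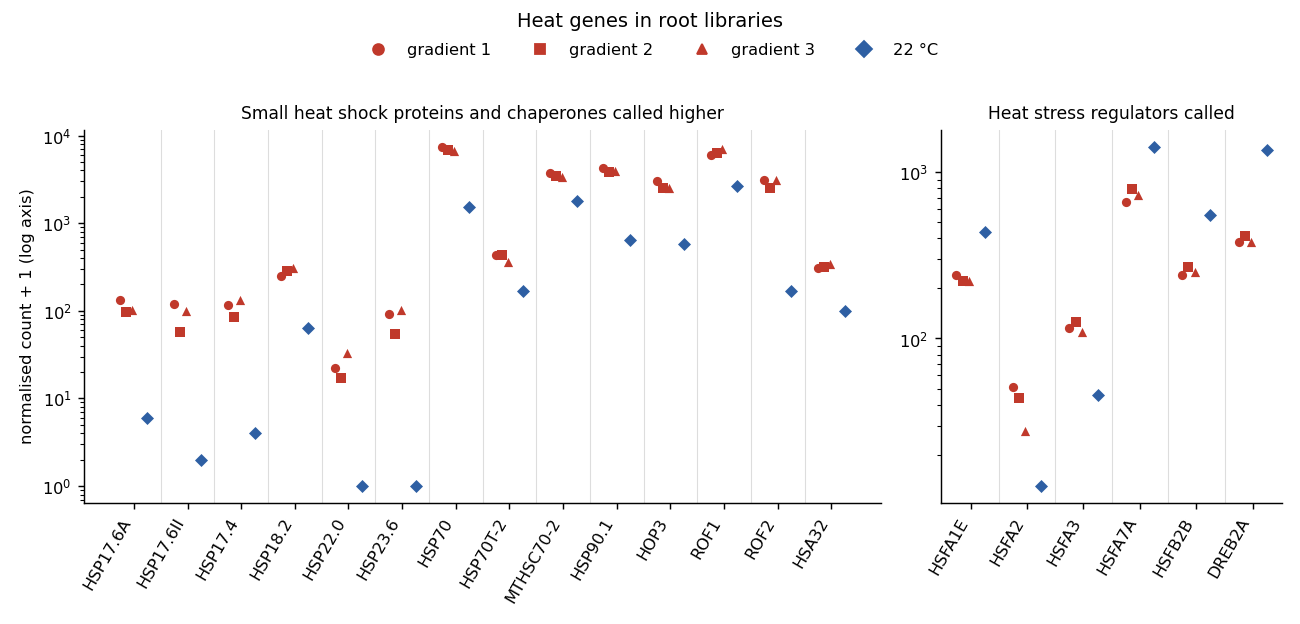
Normalised counts plus 1 on a log axis for the 6 small heat shock protein genes and 8 chaperone genes called higher (left) and the 6 regulators called (right). Red circles, squares and triangles are gradient replicates 1, 2 and 3, and blue diamonds the single 22 °C library. All gradient points of the 14 genes on the left lie above 22 °C, as at every gene called higher. On the right HSFA2 and HSFA3 lie above and the other 4 below.

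Heat shock factors bind pairs of inverted GAA repeats, and the core GAANNTTC, which reads the same on both strands, was searched in the 250 bases before and 50 bases after the RefSeq gene start (TAIR10.1). It was held by 3177 of 27443 windows of nuclear protein-coding genes (11.6%), by 2 of 6 small heat shock protein windows, 4 of 15 chaperone windows and 4 of 13 regulator windows. Wholly before the start it was held by 1, 1 and 4 of these, and by 9.55% of all windows. The 250 bases before the start are shown for HSP17.4 (AT3G46230), a gene called higher with 2 matches (chr3:16984868-16985117, minus strand), for HSFA2 (AT2G26150), the heat-induced activator (chr2:11135374-11135623, plus strand), and for HSFA7A, which holds the element and was lower (chr3:19264891-19265140, plus strand). Sequences are from RefSeq, 5′ to 3′ on the gene's strand, with matches in capitals.
HSP17.4: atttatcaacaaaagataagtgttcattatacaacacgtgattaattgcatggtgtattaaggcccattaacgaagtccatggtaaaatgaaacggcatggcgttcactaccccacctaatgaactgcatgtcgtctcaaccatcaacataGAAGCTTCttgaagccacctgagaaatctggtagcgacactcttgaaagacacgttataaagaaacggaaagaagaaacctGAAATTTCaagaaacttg
HSFA2: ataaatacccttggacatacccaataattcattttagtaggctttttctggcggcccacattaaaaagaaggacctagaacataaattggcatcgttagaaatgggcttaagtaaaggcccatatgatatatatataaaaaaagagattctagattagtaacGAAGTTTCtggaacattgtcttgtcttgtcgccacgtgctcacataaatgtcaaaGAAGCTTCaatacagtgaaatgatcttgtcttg
HSFA7A: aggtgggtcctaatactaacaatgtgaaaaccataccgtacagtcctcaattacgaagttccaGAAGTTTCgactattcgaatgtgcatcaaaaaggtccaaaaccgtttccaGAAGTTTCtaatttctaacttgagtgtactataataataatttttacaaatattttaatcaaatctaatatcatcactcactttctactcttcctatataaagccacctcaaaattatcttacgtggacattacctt
HSP17.4 had 115, 84 and 132 normalised counts in the gradient libraries, against 3 at 22 °C (4.77 ± 0.44, adjusted p = 0.00102). HSFA2 had 50, 43 and 27, against 12 at 22 °C (1.61 ± 0.39, adjusted p = 0.0312). The HSFA2 call ended without gradient replicate 1 (adjusted p = 0.0514), gradient replicate 2 (0.0943) or 32 °C replicate 1 (0.0644). The element thus stood before genes that moved in either direction, and a match is a description of the letters only.

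Endoplasmic reticulum folding genes made up a second chaperone group. Of 13 tested, 8 were higher and none lower (median log2 fold change 0.80), and 6 were higher after TMM scaling. CNX1 (AT5G61790), the calnexin lectin chaperone, had 17417, 17609 and 19092 normalised counts in the gradient libraries, against 8999 at 22 °C (1.0 ± 0.18, adjusted p = 0.0109). ERO1 (AT1G72280), the oxidase that drives disulfide formation, had 347, 401 and 387, against 202 at 22 °C (0.90 ± 0.20, adjusted p = 0.0247). ERDJ3A (AT3G08970), an HSP40 of the lumen, had 310, 336 and 205, against 100 at 22 °C (1.46 ± 0.29, adjusted p = 0.0152). The calls were sensitive to 1 library. Leaving out 32 °C replicate 1 kept 5 of the 8 calls. Without gradient replicate 2 only ERDJ3B (AT3G62600) was still called, and CNX1, ERO1 and ERDJ3A had adjusted p = 0.0504, 0.086 and 0.0508. BZIP28 (AT3G10800), a stress sensor of that membrane, was not called, with 2142, 2056 and 1644 in the gradient libraries, against 2527 at 22 °C.

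Of 33 phosphate starvation genes 13 were higher and 1 lower, and 19 were not called. The median log2 fold change was 1.23, and 27 of 33 were above 0, as was the median of all tested genes (0.09). After TMM scaling 11 were higher and 2 lower, without gradient replicate 3, 17 and 3, and without 32 °C replicate 3, 21 and 1. PHT1;4 (AT2G38940), a high-affinity phosphate importer, had 4593, 4657 and 3757 normalised counts in the gradient libraries, against 1837 at 22 °C (1.23 ± 0.23, adjusted p = 0.0129). PHF1 (AT3G52190), which moves these importers to the plasma membrane, had 1639, 1644 and 1329, against 667 at 22 °C (1.2 ± 0.23, adjusted p = 0.0126). PHO1;H1 (AT1G68740), a phosphate exporter to the xylem, had 1939, 1588 and 1124, against 586 at 22 °C (1.37 ± 0.26, adjusted p = 0.0135). For these genes replicate 3 was the lowest gradient library, still well above 22 °C. PHT1;5 (AT2G32830), which moves phosphate between organs, had 242, 223 and 168, against 14 at 22 °C (3.80 ± 0.77, adjusted p = 0.0166). PHO2 (AT2G33770), the ubiquitin-conjugating enzyme that removes phosphate transporters, had 4644, 3395 and 2528, against 6512 at 22 °C, and was not called (adjusted p = 0.0735). The phosphatase genes PS2 (AT1G73010) and PEPC1 (AT1G17710) missed the threshold, with 1798, 1246 and 1044 against 253, and 914, 476 and 388 against 24. Their means at 32 °C were 1242 ± 1050 and 327 ± 464 (SD, n = 3), a spread as wide as the level itself. Without gradient replicate 2, 3 of the 14 calls of the list remained, and PHT1;4, PHF1, PHO1;H1 and PHT1;5 had adjusted p = 0.0508, 0.05, 0.0508 and 0.055. PHT1;1 and PHT1;2 are near-identical, and the counting of shared reads is not stated.

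The P1BS element GNATATNC, bound by the phosphate starvation regulator PHR1 and the same on both strands, was held by 13 of 33 windows of phosphate starvation genes (39.4%), against 1716 of 27443 windows of all nuclear protein-coding genes (6.25%). Wholly before the start it was in 8 of the 33, against 5.46% of all windows, and in the other 5 it lay at or after the start. Of the 13 members called higher 6 held it in the whole window, and the 1 called lower did not. Wholly before the start it stood in SPX3, PHT1;2 and PLDP2, called higher. It also stood there in AT4 (AT5G03545), MGD2 (AT5G20410), NPC4 (AT3G03530), PS2 and GDPD1 (AT3G02040), which were not called. A link between the element and the calls was not tested. The word GAATATTC fits both this element and the heat shock core, and was in 4 of the 33 phosphate windows, in none of 34 heat gene windows, and in 1.01% of all windows. The 250 bases before the start are shown for 3 genes called higher, SPX3 (AT2G45130; chr2:18606160-18606409, plus strand), PHT1;2 (AT5G43370; chr5:17415448-17415697, plus strand) and PLDP2 (AT3G05630; chr3:1634944-1635193, plus strand), in RefSeq TAIR10.1 with matches in capitals.
SPX3: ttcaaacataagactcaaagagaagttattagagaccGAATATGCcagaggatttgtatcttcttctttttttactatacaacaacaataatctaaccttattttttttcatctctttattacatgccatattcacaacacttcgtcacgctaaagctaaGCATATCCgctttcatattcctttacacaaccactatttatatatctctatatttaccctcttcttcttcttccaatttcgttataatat
PHT1;2: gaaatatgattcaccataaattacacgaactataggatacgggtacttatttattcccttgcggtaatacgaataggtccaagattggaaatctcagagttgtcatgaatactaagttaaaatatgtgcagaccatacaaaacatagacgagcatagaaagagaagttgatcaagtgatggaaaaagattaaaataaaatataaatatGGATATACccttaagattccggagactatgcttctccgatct
PLDP2: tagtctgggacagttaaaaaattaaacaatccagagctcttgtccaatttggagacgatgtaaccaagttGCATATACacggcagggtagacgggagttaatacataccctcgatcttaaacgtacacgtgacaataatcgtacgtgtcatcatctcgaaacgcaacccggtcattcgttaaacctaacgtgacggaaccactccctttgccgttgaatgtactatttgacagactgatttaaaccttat
SPX3, a phosphate sensor that restrains PHR1, had 732, 560 and 550 normalised counts in the gradient libraries, against 21 at 22 °C (4.79 ± 1.18, adjusted p = 0.0314). In the 32 °C roots it had 79, 58 and 753, so its spread was set mainly by 1 library of that group. The call ended without gradient replicate 1 (adjusted p = 0.0511) or replicate 2 (0.0825). PHT1;2, an importer, had 346, 233 and 143 in the gradient libraries, against 21 at 22 °C (3.37 ± 0.55, adjusted p = 0.00781), and PLDP2, a phospholipase that frees phosphate from membrane lipids, 957, 533 and 338, against 79 (2.80 ± 0.54, adjusted p = 0.0133).

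Of 21 sulfur genes 7 were higher and none lower (median log2 fold change 0.59). SDI1 (AT5G48850), a sulfur deficiency gene that in Arabidopsis represses glucosinolate synthesis, had 365, 384 and 365 normalised counts in the gradient libraries, against 154 at 22 °C (1.26 ± 0.19, adjusted p = 0.00531). APR1 (AT4G04610), which reduces activated sulfate, had 4493, 4030 and 4131, against 2157 at 22 °C (0.97 ± 0.19, adjusted p = 0.0138). SULTR2;1 (AT5G10180), a sulfate transporter of the vasculature, had 2272, 1189 and 936, against 391 at 22 °C (1.8 ± 0.41, adjusted p = 0.0252), and was not called without gradient replicate 2 (adjusted p = 0.0587). The importer SULTR1;2 (AT1G78000) was not called, with 20122, 19412 and 14302 in the gradient libraries, against 10096 at 22 °C. Of the 7 calls 3 remained without gradient replicate 2 and 4 without 32 °C replicate 1, 11 genes were called without gradient replicate 3, and 5 after TMM scaling.

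Of 13 aliphatic glucosinolate genes, which build chains from methionine, 9 were higher and none lower (median log2 fold change 1.38). MYB28 (AT5G61420), their main activator, had 1151, 1361 and 1379 normalised counts in the gradient libraries, against 407 at 22 °C (1.66 ± 0.17, adjusted p = 0.00141). BCAT4 (AT3G19710), the first enzyme of chain elongation, had 1315, 2928 and 2497, against 413 at 22 °C (2.36 ± 0.43, adjusted p = 0.0109). CYP79F2 (AT1G16400), which opens the core pathway, had 1693, 2762 and 2585, against 580 at 22 °C (1.98 ± 0.29, adjusted p = 0.00533). In BCAT4 and CYP79F2 replicate 1 was the lowest gradient library, where for phosphate genes replicate 3 was. The related CYP79F1 (AT1G16410) was near the filter at 8, 19 and 10 against 10, and shared reads between the pair cannot be told apart. Of the 9 calls 7 remained without gradient replicate 2.

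Of 15 indole glucosinolate and transport genes 9 were higher and none lower (median log2 fold change 0.97). The root myrosinases TGG4 (AT1G47600) and TGG5 (AT1G51470), which cleave glucosinolates on wounding, were among them. TGG4 had 3677, 3648 and 2801 normalised counts in the gradient libraries, against 435 at 22 °C (2.94 ± 0.32, adjusted p = 0.00167). TGG5 had 2907, 3287 and 2296, against 391 at 22 °C (2.84 ± 0.31, adjusted p = 0.00184). The 32 °C roots averaged 1571 ± 501 and 1065 ± 323 (SD, n = 3), and gradient roots were higher than these (adjusted p = 0.00616 and 0.00264). MYB34 (AT5G60890), the activator of the indole branch in roots, had 6919, 6908 and 5993 in the gradient libraries, against 3434 at 22 °C (0.94 ± 0.15, adjusted p = 0.0071). CYP79B3 (AT2G22330), which converts tryptophan, had 11750, 14287 and 11036, against 5667 at 22 °C (1.12 ± 0.18, adjusted p = 0.00788). GTR2 (AT5G62680), a glucosinolate importer, was higher by 1.15 ± 0.20. The major root glucosidase BGLU23 (AT3G09260) had 781634, 749897 and 579866, against 355822 at 22 °C, and was not called (adjusted p = 0.306).

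Of 16 xylem and lignin genes 10 were higher and none lower, as after TMM scaling, with a median log2 fold change of 1.33. VND6 (AT5G62380) and VND7 (AT1G71930), NAC factors that start vessel formation, had 149, 168 and 157 and 207, 167 and 173 normalised counts in the gradient libraries, against 57 and 70 at 22 °C. Their log2 fold changes were 1.45 ± 0.26 (adjusted p = 0.0102) and 1.36 ± 0.24 (adjusted p = 0.0106). MYB46 (AT5G12870), a secondary wall switch, had 393, 346 and 329, against 129 at 22 °C (1.45 ± 0.19, adjusted p = 0.00363), and its close relative MYB83 (AT3G08500) 145, 121 and 101, against 39 (1.61 ± 0.27, adjusted p = 0.0087). Each of these 4 factors was above 22 °C in every gradient library, as was every gene called higher. The vessel proteases XCP1 (AT4G35350) and XCP2 (AT1G20850), which clear dying vessel cells, were higher by 1.94 ± 0.14 (adjusted p = 0.000409) and 1.77 ± 0.15 (adjusted p = 0.000789). XCP1 had 7761, 7568 and 7086 in the gradient libraries, against 1940 at 22 °C. The lignin laccases LAC4 (AT2G38080) and LAC11 (AT5G03260) were higher by 1.32 ± 0.19 and 2.27 ± 0.28. LAC11 had 4708, 4131 and 3052, against 807 at 22 °C.

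The secondary wall cellulose synthases were not called. They were above 22 °C in each gradient library, as were 8951 of all 21877 tested genes. CESA4 (AT5G44030) had 4591, 3312 and 2310 normalised counts in the gradient libraries, against 1781 at 22 °C (0.88 ± 0.31, adjusted p = 0.091). CESA7 (AT5G17420) had 3497, 2462 and 1939, against 1442 (adjusted p = 0.079), and CESA8 (AT4G18780) 2471, 1842 and 1226, against 928 (adjusted p = 0.0812). Replicate 1 was high and replicate 3 low in all 3, a wider spread than for the vessel proteases. Without gradient replicate 3 the list had 13 members called higher, and without gradient replicate 2, 9 of the 10 calls remained.

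Triterpene genes sit in clusters of neighbours in the Arabidopsis genome and make root metabolites such as thalianol and marneral. Of 8 tested, 7 were higher and none lower (median log2 fold change 1.58). In the marneral cluster, CYP705A12 (AT5G42580) had 14536, 10784 and 6555 normalised counts in the gradient libraries, against 1932 at 22 °C (2.38 ± 0.41, adjusted p = 0.00921). Its neighbour CYP71A16 (AT5G42590) had 16708, 14234 and 11492, against 4291 at 22 °C (1.7 ± 0.26, adjusted p = 0.00573). The marneral synthase MRN1 (AT5G42600) had 32664, 27034 and 16376, against 6745 at 22 °C (1.85 ± 0.47, adjusted p = 0.0343). The same order of libraries, replicate 1 above 2 above 3, held in each of these genes. In the thalianol cluster the synthase THAS1 (AT5G48010) had 51631, 39680 and 25644, against 14504 at 22 °C (1.37 ± 0.38, adjusted p = 0.0452), and CYP708A2 (AT5G48000), the thalianol hydroxylase, 45365, 37021 and 26128, against 11973 (1.56 ± 0.34, adjusted p = 0.0204). PEN1 (AT4G15340), of another cluster, was not called, with 2837, 2704 and 2608 against 2220. Leaving out 32 °C replicate 1 kept 3 of the 7 calls. Without gradient replicate 2 only CYP705A12 and CYP71A16 were still called, with THAS1, MRN1 and CYP708A2 at adjusted p = 0.122, 0.0982 and 0.07. MRN1 and THAS1 were also not called without gradient replicate 1 (adjusted p = 0.0513 and 0.056) or 32 °C replicate 1 (0.0628 and 0.085), and THAS1 without 32 °C replicates 2 or 3 (0.0529 and 0.0566). After TMM scaling 4 of the 7 were called, without MRN1 and THAS1 (adjusted p = 0.052 and 0.0729). At 32 °C MRN1 averaged 6137 ± 2230 and CYP705A12 4776 ± 1090 (SD, n = 3), and gradient roots were higher (adjusted p = 0.003 and 0.0179).

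**Figure D4:**
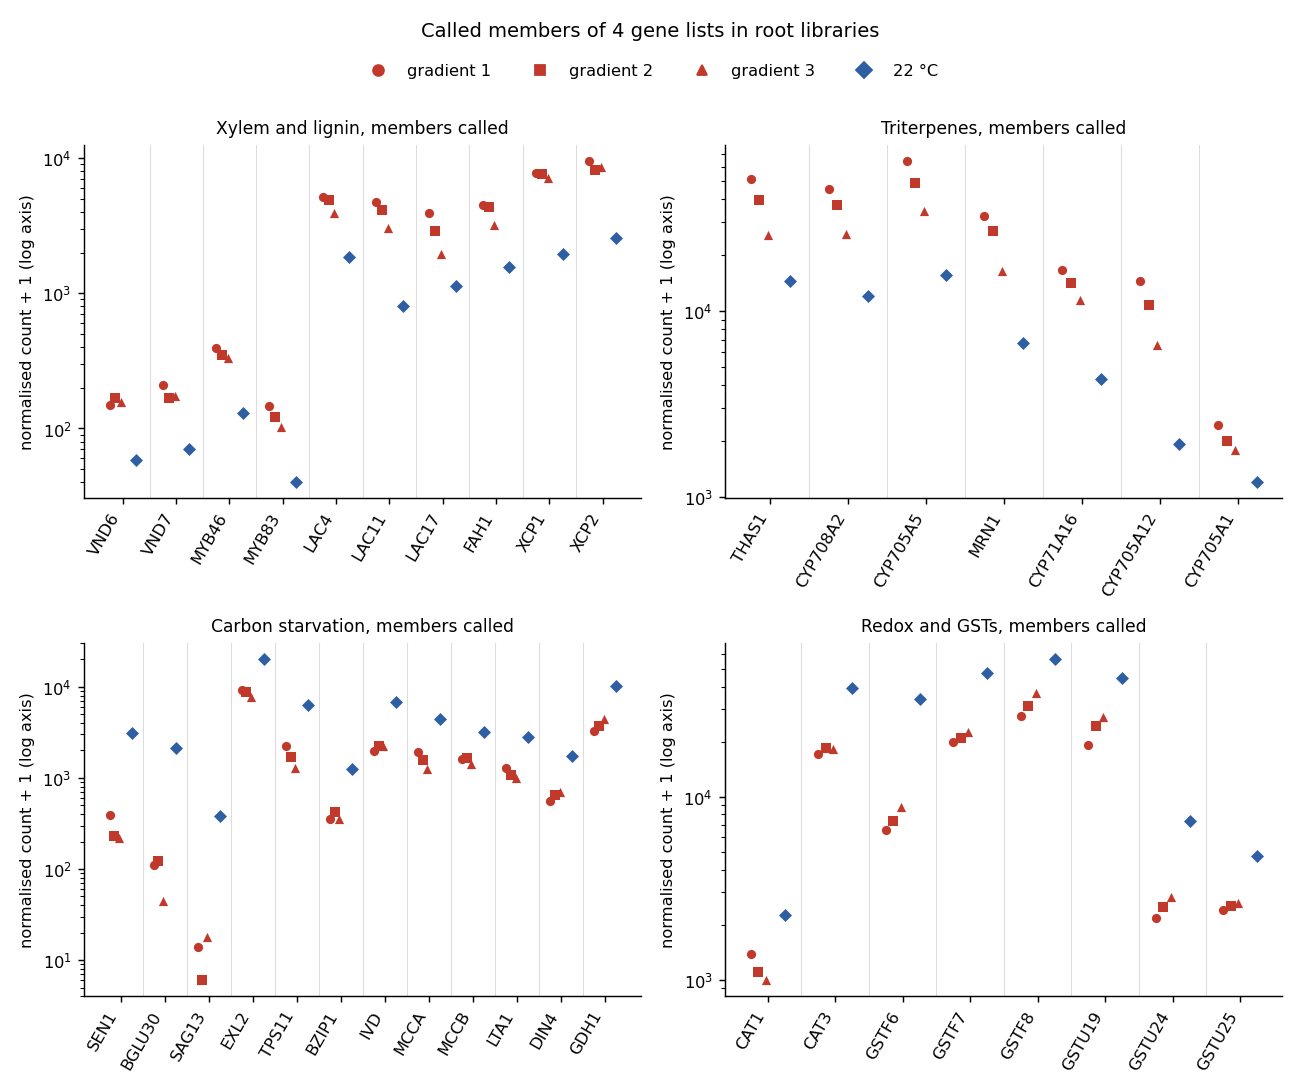
Normalised counts plus 1 on a log axis for called members of 4 lists. Red circles, squares and triangles are gradient replicates 1, 2 and 3, and blue diamonds the single 22 °C library. The xylem and triterpene genes drawn lie above 22 °C and the carbon starvation and redox genes below it in every gradient library. Such separation holds at every called gene, and uncalled members are not drawn. Replicates differ in a fixed order in the 7 triterpene genes and are close together in XCP1, XCP2 and GSTF7.

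Root hair genes had a high median but few calls. Of 23 tested, 5 were higher and none lower, although the median log2 fold change was 1.46 and 22 of 23 were above 0. The median of all tested genes was also above 0, at 0.09. MRH1 (AT4G18640), a receptor-like kinase of hair growth, had 3392, 2802 and 1933 normalised counts in the gradient libraries, against 861 at 22 °C (1.61 ± 0.27, adjusted p = 0.0081). RSL4 (AT1G27740), the factor that sets hair length, had 537, 449 and 413, against 121 at 22 °C (1.93 ± 0.54, adjusted p = 0.0462). It was not called without gradient replicate 1 (adjusted p = 0.077), gradient replicate 2 (0.111) or 32 °C replicate 1 (0.0787). Further hair genes missed the threshold and were above 22 °C in each gradient library, as were 8951 of all 21877 tested genes. COW1 (AT4G34580), which positions the hair tip, had 2121, 1768 and 923, against 411 at 22 °C (adjusted p = 0.109), and EXPA7 (AT1G12560), a hair expansin, 2218, 2547 and 1672, against 727 (adjusted p = 0.121). At 32 °C COW1 averaged 336 ± 216 and EXPA7 402 ± 233 (SD, n = 3). Of the 5 calls 1 remained without gradient replicate 2, 2 without 32 °C replicate 1 and 3 without gradient replicate 1. Leaving out gradient replicate 3 gave 8 genes called higher, 32 °C replicate 2 gave 9, and TMM scaling 3, without RSL4 (adjusted p = 0.064).

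Of 19 salicylic acid defence genes 11 were higher and none lower (median log2 fold change 1.12), and 10 after TMM scaling. PBS3 (AT5G13320), which joins glutamate to the salicylic acid precursor, had 343, 396 and 251 normalised counts in the gradient libraries, against 7 at 22 °C (5.35 ± 1.25, adjusted p = 0.0269). In the 32 °C roots it had 14, 2 and 53. WRKY54 (AT2G40750), a factor of this pathway, had 263, 355 and 307 in the gradient libraries, against 92 at 22 °C (1.72 ± 0.33, adjusted p = 0.013). SAG101 (AT5G14930), a partner of EDS1, had 507, 466 and 496, against 224 at 22 °C (1.12 ± 0.19, adjusted p = 0.00783). The gradient libraries of SAG101 were tight and apart from 22 °C. The classical outputs PR1 (AT2G14610), PR2 (AT3G57260) and PR5 (AT1G75040) did not pass the filter, with 0 or 1 in each of these libraries. Without gradient replicate 2, 4 of the 11 calls remained, and PBS3 and WRKY54 had adjusted p = 0.0807 and 0.0509.

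Of 25 pattern immunity genes 4 were higher and 2 lower, and the 2 that were lower make the antimicrobial camalexin. The higher genes numbered 9 without gradient replicate 3 and 2 without gradient replicate 2. CYP71A13 (AT2G30770) had 5, 9 and 6 normalised counts in the gradient libraries, against 211 at 22 °C (-4.82 ± 0.64, adjusted p = 0.00363), and PAD3 (AT3G26830), the last enzyme, 212, 219 and 152, against 813 (-2.08 ± 0.29, adjusted p = 0.00452). WRKY53 (AT4G23810), a defence and senescence factor, had 1126, 1104 and 1566, against 158 at 22 °C (2.97 ± 0.23, adjusted p = 0.000485). PEN2 (AT2G44490), a myrosinase that activates indole glucosinolates, was higher by 1.14 ± 0.18. In jasmonate genes 6 of 19 were higher and 1 lower (median 0.40), of which 7 calls 4 remained without 32 °C replicate 2 and 5 without gradient replicate 2 or 32 °C replicate 1. The synthesis genes LOX4 (AT1G72520) and AOC3 (AT3G25780) were higher by 2.95 ± 0.43 and 1.40 ± 0.22, with LOX4 at 644, 359 and 409 in the gradient libraries, against 58 at 22 °C.

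Of 24 cytokinin genes 8 were higher and none lower (median log2 fold change 0.64). These were 4 of 5 synthesis genes, 3 of 7 cytokinin oxidase genes and 1 of 9 type-A response regulators. IPT7 (AT3G23630), which makes the cytokinin precursor, had 292, 354 and 291 normalised counts in the gradient libraries, against 57 at 22 °C (2.43 ± 0.23, adjusted p = 0.00108). CKX4 (AT4G29740), a cytokinin oxidase, had 3418, 3185 and 3080, against 724 at 22 °C (2.15 ± 0.15, adjusted p = 0.000286). CYP735A1 (AT5G38450) and CYP735A2 (AT1G67110), which make trans-zeatin, were higher by 1.52 ± 0.22 and 1.17 ± 0.18. IPT3 (AT3G63110), a nitrate-responsive synthesis gene, had 322, 519 and 499, against 104 at 22 °C (2.06 ± 0.39, adjusted p = 0.0126). As at every called gene, the libraries of these 5 genes did not overlap with 22 °C. CKX2 (AT2G19500) had 83, 119 and 122, against 17 at 22 °C and 7.67 ± 4.73 (SD, n = 3) in the 32 °C roots, and its call ended without gradient replicate 2 (adjusted p = 0.0785). The type-A response regulator ARR8 (AT2G41310), which dampens the cytokinin response, had 3217, 4042 and 4228, against 2395 at 22 °C (0.67 ± 0.19, adjusted p = 0.0467). It was not called after TMM scaling (adjusted p = 0.0643), without gradient replicate 2 (0.139) or without 32 °C replicates 1, 2 or 3 (0.0955, 0.0678 and 0.0575). ARR3 (AT1G59940) and ARR7 (AT1G19050) were not called, with 636, 553 and 593 against 324, and 586, 880 and 1125 against 423. Of the 8 calls 5 remained without gradient replicate 2.

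Of 16 auxin synthesis and transport genes 2 were higher, 12.5% against 11.1% of all genes, and of 23 response genes 4 were higher and 2 lower. Without gradient replicate 2 these calls fell to 0 and 1, and without 32 °C replicate 1 to 1 and 2. Leaving out gradient replicate 3 gave 4 synthesis and transport genes higher, and 8 response genes higher and 2 lower. AUX1 (AT2G38120), the auxin importer, had 7273, 6841 and 5464 normalised counts in the gradient libraries, against 3379 at 22 °C (0.94 ± 0.19, adjusted p = 0.015), and was not called without gradient replicate 2 (adjusted p = 0.0625). IAA7 (AT3G23050), a response repressor, had 2298, 2315 and 2763, against 1180 at 22 °C (1.05 ± 0.18, adjusted p = 0.00828). TIR1 (AT3G62980), the auxin receptor, had 2931, 3088 and 3029, against 4581 at 22 °C (-0.60 ± 0.14, adjusted p = 0.0236), and LBD16 (AT2G42430), a lateral root factor, 286, 277 and 260, against 501 (-0.87 ± 0.20, adjusted p = 0.0275). Both calls ended without gradient replicate 2 (adjusted p = 0.0822 and 0.085) or 32 °C replicate 1 (0.0674 and 0.0524). In brassinosteroid synthesis CPD (AT5G05690) was lower at 1089, 1034 and 1028, against 2062 at 22 °C (-0.97 ± 0.15, adjusted p = 0.00607). DWF4 (AT3G50660), which acts earlier, was higher at 827, 864 and 789, against 498 (0.73 ± 0.14, adjusted p = 0.0142), a call that ended without gradient replicate 2 (0.0636). Of gibberellin genes 1 of 17 was called lower, 5.88% against 5.15% of all genes. It was RGL3 (AT5G17490), a DELLA repressor, with a log2 fold change of -1.46 ± 0.23. Without gradient replicate 3, 4 were lower, and 2 without gradient replicate 1.

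Of 16 wall loosening genes 4 were higher, of which 2 remained without gradient replicate 2, and 6 were higher and 1 lower without gradient replicate 1. Among them was EXPA4 (AT2G39700), an expansin, with 11002, 11532 and 12090 normalised counts in the gradient libraries, against 3957 at 22 °C (1.54 ± 0.17, adjusted p = 0.00188). XTH31 (AT3G44990), a wall-remodelling enzyme, was higher by 1.71 ± 0.27. None of 11 mitosis genes was called, with a median log2 fold change of -0.14 and the lowest adjusted p at 0.138. Of 9 DNA replication genes 3 were higher, but 0 remained without gradient replicate 2 and 1 without 32 °C replicate 1, 5 were higher without gradient replicate 3, and 1 was called after TMM scaling. Of 10 root meristem and cap genes 1 was higher and 2 lower, and without gradient replicate 2 only BRN1 was called. BRN1 (AT1G33280), a NAC factor of the root cap, had 156, 201 and 221, against 52 at 22 °C (1.85 ± 0.29, adjusted p = 0.00613). The genes that were lower were the PLETHORA-family factors BBM (AT5G17430), with 146, 139 and 198, against 358 at 22 °C (-1.17 ± 0.23, adjusted p = 0.0157), and PLT3 (AT5G10510), with 866, 698 and 799, against 1168 (-0.57 ± 0.16, adjusted p = 0.044). They had adjusted p = 0.0556 and 0.127 without gradient replicate 2, and PLT3 was also not called without 32 °C replicates 1, 2 or 3 (0.0984, 0.0675 and 0.0627). PLT1 (AT3G20840), of the same family, had 297, 253 and 302, against 364 at 22 °C, and was not called.

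Of 20 carbon starvation genes 12 were lower in the gradient and none higher, with a median log2 fold change of -1.28, and these 12 remained called in each leave-one-out fit. Many take part in the breakdown of branched-chain amino acids, which starved cells use as fuel. IVD (AT3G45300), the isovaleryl-CoA dehydrogenase, had 1958, 2265 and 2252 normalised counts in the gradient libraries, against 6873 at 22 °C (-1.67 ± 0.18, adjusted p = 0.00159). DIN4 (AT3G13450) and LTA1 (AT3G06850), subunits of the branched-chain keto acid dehydrogenase, were lower by log2 fold changes of -1.45 ± 0.17 and -1.34 ± 0.16. MCCA (AT1G03090), the methylcrotonyl-CoA carboxylase subunit, had 1930, 1572 and 1256, against 4458 at 22 °C (-1.51 ± 0.22, adjusted p = 0.00478). These enzymes of 1 route were lower, with every gradient library below 22 °C, as at every gene called lower. BGLU30 (AT3G60140), a dark-induced glucosidase, had 111, 120 and 43, against 2106 at 22 °C (-4.65 ± 0.52, adjusted p = 0.00186). GDH1 (AT5G18170), a glutamate dehydrogenase, had 3264, 3755 and 4452, against 10090 (-1.41 ± 0.18, adjusted p = 0.00313), while GDH2 (AT5G07440) had 30894, 28064 and 25195, against 34879, and was not called. TPS11 (AT2G18700), a trehalose phosphate synthase-like gene repressed by sugar, had 2229, 1715 and 1273, against 6298 at 22 °C (-1.89 ± 0.26, adjusted p = 0.00436).

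Sugar transporters of the SWEET family moved in different directions. SWEET11 (AT3G48740), a sucrose exporter of the phloem, had 4495, 4638 and 4623 normalised counts in the gradient libraries, against 848 at 22 °C (2.43 ± 0.39, adjusted p = 0.00715). SWEET2 (AT3G14770), a vacuolar glucose carrier, had 609, 688 and 504, against 1920 at 22 °C (-1.69 ± 0.20, adjusted p = 0.00234). SWEET4 (AT3G28007) had 3, 1 and 1, against 47 at 22 °C (adjusted p = 0.0437), a call that ended without gradient replicate 2 (0.112) or 32 °C replicate 1 (0.0682). Of 13 sugar transport genes 3 were higher and 2 lower (median -0.07), and 2 of these 5 calls remained without gradient replicate 2 and 2 without 32 °C replicate 1. The hexose importer STP1 (AT1G11260) had 5749, 5218 and 4153, against 7822, and the phloem loader SUC2 (AT1G22710) 3025, 2646 and 2325, against 3326, neither called.

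Of 21 abscisic acid genes 12 were lower and 1 higher (median log2 fold change -1.13). HB-7 (AT2G46680) and HB-12 (AT3G61890), stress-induced homeodomain factors, had 1606, 1651 and 1362 and 725, 627 and 563 normalised counts in the gradient libraries, against 3368 and 1728 at 22 °C. Their log2 fold changes were -1.13 ± 0.18 (adjusted p = 0.00651) and -1.44 ± 0.21 (adjusted p = 0.00467). RD26 (AT4G27410), a NAC factor, had 1078, 1207 and 1273, against 3012 at 22 °C (-1.35 ± 0.16, adjusted p = 0.00219). The member that was higher, CYP707A3 (AT5G45340), degrades the hormone, with 1026, 1216 and 957, against 323 at 22 °C (1.71 ± 0.18, adjusted p = 0.00158). It was the only 1 of 4 such hydroxylase genes called. CYP707A1 (AT4G19230) had 1330, 1066 and 722, against 1121 at 22 °C, CYP707A2 (AT2G29090) 4, 5 and 10, against 51, and CYP707A4 (AT3G19270) 10, 1 and 8, against 29. HAI1 (AT5G59220), a phosphatase gene that limits the response and is itself induced by it, was lower by -1.32 ± 0.24. Of the 13 calls 7 remained without gradient replicate 2 and 8 without 32 °C replicate 1.

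Of 12 cold-regulated genes 6 were lower and none higher (median log2 fold change -1.26). Of the 6 calls 4 remained without gradient replicate 2 and 5 in each other leave-one-out fit. CBF1 (AT4G25490), a cold-induced activator, had 1, 3 and 1 normalised counts in the gradient libraries, against 81 at 22 °C (-5.02 ± 0.73, adjusted p = 0.00496). Its near copies CBF2 (AT4G25470) and CBF3 (AT4G25480) had 31, 39 and 46 and 64, 46 and 94, against 415 and 242, and missed the threshold (adjusted p = 0.0538 and 0.0762). LTI30 (AT3G50970), a dehydrin, had 2127, 2133 and 2663, against 8016 at 22 °C (-1.8 ± 0.19, adjusted p = 0.00154), and the membrane protein gene COR413-PM1 (AT2G15970) 13241, 11884 and 12232, against 27146 (-1.13 ± 0.17, adjusted p = 0.0055). The abscisic acid response element core ACGTG, on either strand, was in 13 of 21 abscisic acid windows and 6 of 12 cold-regulated windows, against 26.7% of all windows. Among members called lower it was in 6 of 12 and 2 of 6. The evening element core AAATATCT was in 6 of 12 cold-regulated windows and 7 of 20 clock windows, against 5.65% of all windows, and among members called lower in 3 of 6 and 2 of 8. The W-box core TTGAC was in 10 of 19 salicylic acid windows and 22 of 25 pattern immunity windows, against 50.5% of all windows, and among members called higher in 6 of 11 and 4 of 4.

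Of 20 circadian clock genes 8 were lower and 2 higher (median log2 fold change -0.41). CCA1 (AT2G46830) and LHY (AT1G01060), the morning repressors, had 731, 685 and 575 and 586, 686 and 530 normalised counts in the gradient libraries, against 1726 and 1513 at 22 °C. Their log2 fold changes were -1.38 ± 0.25 (adjusted p = 0.0104) and -1.34 ± 0.20 (adjusted p = 0.00538). Their relatives RVE1 (AT5G17300), RVE4 (AT5G02840) and RVE8 (AT3G09600) were lower by log2 fold changes of -1.68 ± 0.21, -0.90 ± 0.16 and -0.99 ± 0.16. PRR9 (AT2G46790), a morning-phase repressor, had 533, 550 and 408, against 1018 at 22 °C (-1.05 ± 0.23, adjusted p = 0.0221), and PRR3 (AT5G60100) 638, 505 and 394, against 234 (1.1 ± 0.25, adjusted p = 0.0247). Both PRR calls ended without gradient replicate 2 (adjusted p = 0.0524 and 0.0763), and that of PRR3 without 32 °C replicate 1 (0.051). Of the 10 calls of the list 7 remained without gradient replicate 2 or 32 °C replicate 1, and 8 without 32 °C replicates 2 or 3. The evening gene LUX (AT3G46640) was not called, with 2030, 2060 and 2325 against 1731. Any difference in harvest time cannot be told apart from the regime here.

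Of 28 iron genes 5 were higher and 6 lower (median log2 fold change -0.02). The ferritin FER1 (AT5G01600), which stores iron, had 2701, 2858 and 3126 normalised counts in the gradient libraries, against 6973 at 22 °C (-1.27 ± 0.14, adjusted p = 0.00175), while FER3 (AT3G56090) and FER4 (AT2G40300) had 1363, 1620 and 2042 and 360, 400 and 465, against 1545 and 534, and were not called. The vacuolar iron transporter-like genes VTL1 (AT1G21140), VTL2 (AT1G76800) and VTL5 (AT3G25190) were lower by log2 fold changes of -1.7 ± 0.24, -1.50 ± 0.29 and -2.04 ± 0.33, with VTL5 at 2030, 3149 and 3861, against 12002 at 22 °C. The uptake reductase FRO2 (AT1G01580) was higher, with 439, 361 and 370, against 121 at 22 °C (1.67 ± 0.24, adjusted p = 0.00478). The deficiency factor BHLH100 (AT2G41240) had 46, 41 and 77, against 6 at 22 °C (2.94 ± 0.56, adjusted p = 0.0135), while FIT (AT2G28160), the uptake regulator, had 1102, 1561 and 1600, against 925, and was not called. The nicotianamine synthases split, NAS1 (AT5G04950) being higher by 0.77 ± 0.15 and NAS2 (AT5G56080) lower at 50, 68 and 90, against 383 at 22 °C (-2.49 ± 0.42, adjusted p = 0.00842). Of the 11 calls 7 remained without gradient replicate 2, where NAS1 had adjusted p = 0.0594. A further 3 loci of the list had no matching symbol and were left out of these counts. Of these 1 was lower and 2 were not called. The lower locus, AT2G30766, written in the list as IMA3, had 1, 1 and 1 in the gradient libraries, against 51 at 22 °C (-4.7 ± 0.72, adjusted p = 0.00607). In the 32 °C roots it had 1, 3 and 2, so it passed the filter only through the 22 °C library, whose 2 columns both counted. A gene that passes in this way can only be lower, so its direction was set by the filter.

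Transport of other ions changed at single genes. HKT1 (AT4G10310), which retrieves sodium from the xylem, had 839, 1325 and 1038 normalised counts in the gradient libraries, against 65 at 22 °C (3.99 ± 0.30, adjusted p = 0.000452), and 2250 ± 514 (SD, n = 3) in the 32 °C roots. The other 4 potassium genes were not called (2 were higher without gradient replicate 3 and 1 without gradient replicate 1), among them the importer HAK5 (AT4G13420) with 3341, 2204 and 2179 against 3336. NRT1.5 (AT1G32450), which loads nitrate and potassium into the xylem, had 27767, 28360 and 30038, against 78093 at 22 °C (-1.44 ± 0.21, adjusted p = 0.00525). Its libraries were tight, and it went against NIR1 (AT2G15620), the nitrite reductase, with 7855, 7929 and 7066, against 4027 (0.92 ± 0.17, adjusted p = 0.0113), a call that ended without gradient replicate 2 (0.0523). Of 30 nitrogen genes 3 were higher and 2 lower, 10.0% and 6.67% against 11.1% and 5.15% of all genes. Leaving out gradient replicate 3 gave 10 higher and 3 lower, and gradient replicate 2 gave 1 and 1. Of 23 aquaporins 2 were higher, 8.7% against 11.1% of all genes, with a median of 0.07, or -0.03 after TMM scaling. Of the aquaporins 1 was called without gradient replicate 2 or 32 °C replicate 1 and 4 without 32 °C replicate 2. PIP2;5 (AT3G54820) had 349, 367 and 427, against 141 at 22 °C (1.42 ± 0.21, adjusted p = 0.00504).

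Of 16 redox genes 8 were lower and none higher, as after TMM scaling (median log2 fold change -0.71), namely 6 of 6 glutathione transferase genes and 2 of 3 catalase genes. GSTF6 (AT1G02930), a stress-induced transferase, had 6587, 7328 and 8763 normalised counts in the gradient libraries, against 34185 at 22 °C (-2.19 ± 0.26, adjusted p = 0.0022). Its neighbour and near copy GSTF7 (AT1G02920) had 19930, 21031 and 22626, against 47347 (-1.16 ± 0.21, adjusted p = 0.0101), and reads of the pair may be shared. GSTU24 (AT1G17170) was lower by a log2 fold change of -1.56 ± 0.18. CAT3 (AT1G20620), a peroxisomal catalase, had 17165, 18384 and 18128, against 39537 at 22 °C (-1.14 ± 0.27, adjusted p = 0.0267). The gradient libraries of these genes were within a narrow range and, as at every gene called lower, below 22 °C. CAT1 (AT1G20630) had 1376, 1103 and 991, against 2268 at 22 °C, and was not called without gradient replicate 2 (adjusted p = 0.0559), and CAT2 (AT4G35090) was not called, with 12496, 13246 and 11518 against 13139. APX2 (AT3G09640), a heat-induced ascorbate peroxidase, had 17, 20 and 19, against 8 at 22 °C and 183 ± 77.1 (SD, n = 3) in the 32 °C roots, and was not called. Of the 8 calls 3 remained without gradient replicate 2 and 5 without 32 °C replicate 1, with CAT3 not called in either (adjusted p = 0.0832 and 0.0519).

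Of 11 genes of low oxygen and alternative respiration 1 was higher and 3 lower, and 2 of these 4 calls remained without gradient replicate 2. PDC1 (AT4G33070), a fermentation enzyme, had 173, 231 and 285 normalised counts in the gradient libraries, against 1411 at 22 °C (-2.64 ± 0.26, adjusted p = 0.00121). AOX1D (AT1G32350), an alternative oxidase, had 29, 41 and 31, against 209 at 22 °C (-2.61 ± 0.62, adjusted p = 0.0288), a call that ended without gradient replicate 2 (adjusted p = 0.0684). NDB4 (AT2G20800), an external NAD(P)H dehydrogenase, was higher, with 43, 21 and 14, against 3 at 22 °C (2.61 ± 0.52, adjusted p = 0.0155). At 32 °C NDB4 averaged 1032 ± 170 (SD, n = 3), far above the gradient libraries (adjusted p = 0.000222).

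Of 27 Casparian strip and suberin genes 1 was higher and 3 lower, 3.7% and 11.1% against 11.1% and 5.15% of all genes (median log2 fold change -0.38). MYB41 (AT4G28110), a suberin activator, had 134, 153 and 151 normalised counts in the gradient libraries, against 425 at 22 °C (-1.54 ± 0.29, adjusted p = 0.0129). CASP5 (AT5G15290), a scaffold of the Casparian strip, had 1521, 1418 and 1455, against 850 at 22 °C (0.78 ± 0.19, adjusted p = 0.0312), and was not called after TMM scaling, without gradient replicate 2 (adjusted p = 0.0881) or without 32 °C replicate 1 (0.068). The remaining 2 lower genes, FAR5 (AT3G44550) and KCS2 (AT1G04220), were not called without gradient replicate 2 (adjusted p = 0.0777 and 0.0887) or 32 °C replicate 1 (0.0608 and 0.0718). Leaving out gradient replicate 2 or 32 °C replicate 1 kept 1 of these 4 calls, that of MYB41. Of 13 flavonoid genes 1 was higher, 7.69% against 11.1% of all genes (3 without gradient replicate 3, and 2 without gradient replicate 1 or 32 °C replicate 3). It was UGT78D1 (AT1G30530), a flavonol glucosyltransferase family gene, with 140, 161 and 162, against 50 at 22 °C (1.60 ± 0.21, adjusted p = 0.00365).

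The gradient libraries did not all differ from 22 °C by the same amount. The median log2 difference from the 22 °C library over root hair genes was 1.8, 1.68 and 0.80 in replicates 1, 2 and 3, over triterpene genes 1.94, 1.64 and 1.13, and over phosphate genes 1.41, 1.3 and 0.99. Replicate 3 was the lowest in these lists. It was not so in small heat shock proteins (4.67, 4.25 and 5.05), abscisic acid genes (-1.06, -1.06 and -1.23) or carbon starvation genes (-1.13, -1.29 and -1.25). Over all tested genes the medians were 0.08, 0.08 and 0.13. Over green tissue markers they were -1.74, -0.17 and 0.88, and the part of that difference in the other lists was not tested. Among genes called higher, replicate 3 was the gradient library nearest to 22 °C at 1237 of 2431, and among genes called lower at 628 of 1127.

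**Figure D5:**
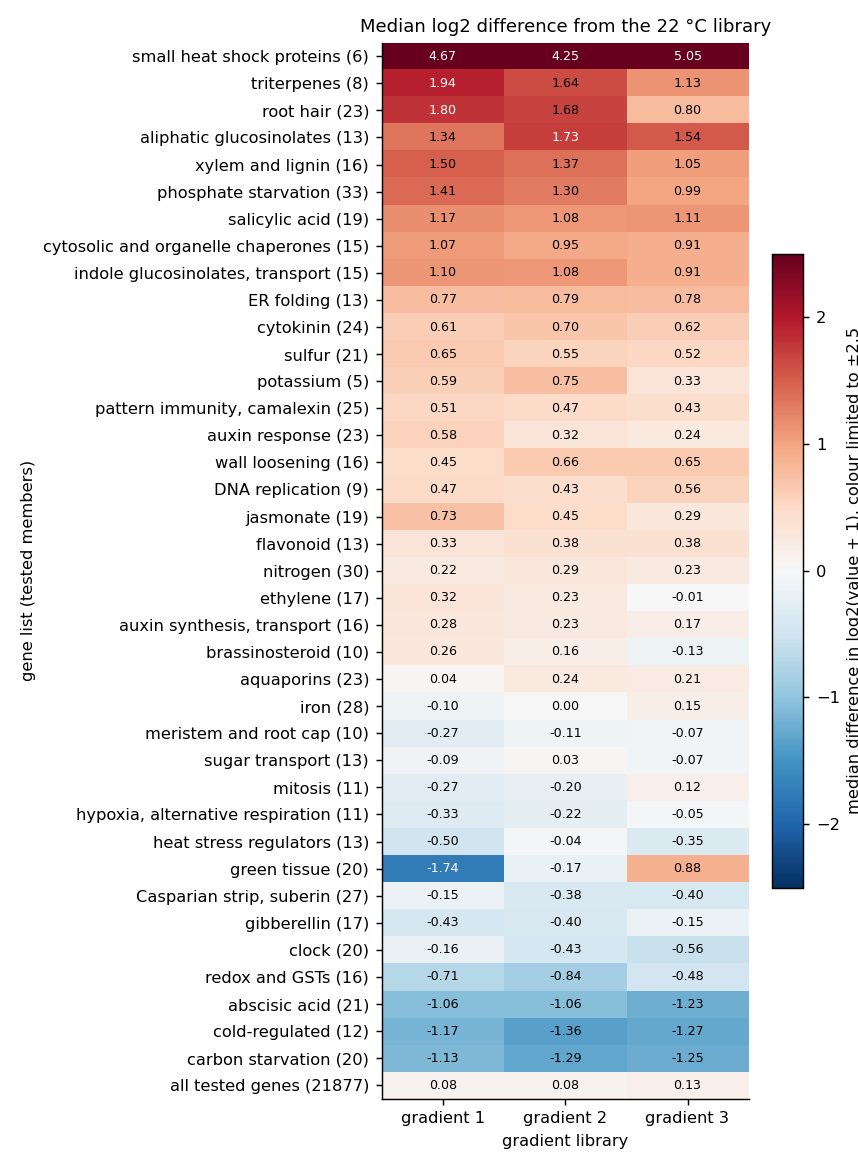
Each cell gives the median, over the tested members of a list (number in brackets), of the difference in log2(value + 1) between 1 gradient library and the 22 °C library. Red is above 22 °C and blue below, with colours limited to ±2.5. Columns are close for ER folding and carbon starvation genes, fall across the 3 libraries for root hair and triterpene genes, and cross 0 for green tissue markers. Small heat shock proteins (4.67, 4.25 and 5.05) lie beyond the colour limit, so their colours do not show how the libraries differ.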

How the data were processed

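Polyadenylated mRNA of roots was sequenced, per the labels' protocols. The deposited table gives whole numbers that the authors call normalised counts, used here as a score because no source used here says how they were normalised. STAR 2.5.3a, HISAT2 and DESeq2 are named without a role, per the submitters' processing notes. Not given in the sources used here are the build, the strand and the treatment of shared reads, so values of near-identical, overlapping and antisense genes are uncertain. Column names matched the sample labels. Gene names came from RefSeq (TAIR10.1), which matched 32548 loci and not the other 285.

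Values were tested with limma 3.58.1 (R 4.3.3) on log2(value + 1), over 7 root libraries fitting 1 mean for each regime with a variance trend and moderated two-sided tests (4 residual degrees of freedom). P-values were adjusted over 21877 genes. No count test was used, because read depth is unknown. Tables and figures used pandas 2.3.3 and matplotlib 3.10.9.

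The comparison and its 38 gene lists were chosen with earlier results of these data known. Of 707 members written, 687 matched a RefSeq symbol, and 686 of these were in the file. The other 20 were tested by locus only, as an alternative chosen after seeing the data. Genes were named by a rule: the 20 largest rises and 20 largest falls among called genes with a mean of at least 50 and no overlap, up to 8 called and 4 uncalled members of each list by adjusted p, and all small heat shock, chaperone, heat regulator and green tissue genes. The text gives a selection of these 399 genes. HSP21, PR1, PR2, PR5, CYP707A1, FER3, FER4, CAT2, AT4, MGD2, NPC4, GDPD1, AT5G37670, AT1G52560 and AT2G30766 were named outside the rule, after their values were seen. One result is not reported here.

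Alternatives were pseudocounts of 0.5 and 8, no filter, a filter counting identical columns once, TMM, equal totals, library weights, 2 groups only, root with shoot, identical columns kept apart, voom, a minimum fold change of 2, a replicate block, and each library left out.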

Additional observations from a re-analysis of the deposited data

How the results depend on the processing

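The 3558 calls, 2431 higher and 1127 lower, stayed within 1.5 times under pseudocounts of 0.5 and 8, no filter, identical columns counted once in the filter, TMM scaling, equal totals and voom, and in total and for higher genes in a fit of root with shoot, where 1873 were lower. They moved to 13968 (8193 higher, 5775 lower) with library weights, whose estimation did not converge. They moved to 8804 (5577 and 3227) with identical columns as separate replicates, 1417 (990 and 427) with 2 groups only, and 199 (165 and 34) at a minimum fold change of 2. Leaving out single gradient or 32 °C libraries gave 1355 to 6582 calls, 990 to 4029 higher and 365 to 2553 lower, the lowest without gradient replicate 2 and the highest without gradient replicate 3. The 22 °C library could not be left out. The cause of these moves was not tested, other than fewer libraries, a second 22 °C column or a stricter test by construction.

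Deviations of same-numbered gradient and 32 °C libraries from their group means had correlations across genes of 0.0207, -0.0994 and -0.21. Those of differently numbered libraries were -0.196 to 0.237. With 3 libraries in each group, whose deviations are tied to one another, these values cannot decide whether the numbers pair the samples. A fit with the replicate number as a block gave 1093 calls (755 and 338) with the 22 °C library numbered 1 and 953 (710 and 243) numbered 2.

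None of the 232 named genes called changed direction under any of these settings in which it was tested. With identical columns counted once in the filter, 394 of the 399 named genes were tested. Of the 232, 145 were called in all 6 fits that left out a library, and 19 were not called after TMM scaling (adjusted p 0.052 to 0.0984). A single 22 °C library limits every value here: its own deviation moves all genes at once and cannot be told apart from the regime. Adding the loci without a matching symbol, an alternative chosen after seeing the data, moved the higher small heat shock genes to 11 and no other list count by over 1.5 times. Depth is unknown, and genes listed at 0 at 22 °C have no fold change.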
